A study of Neurospora crassa with 24 samples.

Results

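The Δ*rco-3* mutant of *Neurospora crassa* was compared with the WT strain after 1 h in medium with 0.05% glucose, across all genes. RNA-Seq libraries were taken by the genotype and glucose labels, which gave 2 WT and 2 Δ*rco-3* libraries of the 24 in the series. All cultures came from conidia grown for 16 h at 28 °C and 200 rpm on 2% sucrose in constant light, after which the mycelia were washed and moved for 1 h to Vogel's minimal medium that held no carbon source, 0.05, 0.5 or 2% glucose. These 4 media were used for WT, Δ*rco-3* and a Δ*col-26* mutant, with 2 libraries per combination. The mutants were single deletion strains from the Fungal Genetics Stock Center and both are *mat a*, and all samples carry the strain label OR74A. Each value is an FPKM, which counts the fragments of a gene scaled by transcript length and by how many fragments of its library were mapped.

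*rco-3* encodes a membrane protein that resembles sugar transporters and acts as a glucose sensor without transporting the sugar. COL-26 is a zinc binuclear cluster transcription factor needed for the use of starch and for the response to glucose. Sensors of this kind allow a fungus to change its set of sugar transporters, its glycolytic genes and the genes for other carbon sources when the sugar outside the cell changes.

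The deleted gene was listed at 0 in both Δ*rco-3* libraries, and at 6.52 and 5.97 FPKM in the WT libraries. *rco-3* lies at chrI:2804910-2808507 between the loci NCU02580 and *gla-2* in the NC12 assembly. The mating type genes separated the strains as well. *mfa-1*, which encodes the pheromone of *mat a* cells, stood at 7.0 and 7.09 FPKM in WT and at 11645 and 11491 FPKM in the mutant, and *pre-2*, the pheromone receptor gene of *mat a* cells, was listed at 0 in WT and at 7.47 and 7.05 FPKM in Δ*rco-3*. *matA-1*, a regulator found only in *mat A* strains, had no signal (0 FPKM) in any library of Δ*rco-3* and at 1.82 FPKM or more in all WT libraries. Mating type and the deletion cannot be told apart in this comparison.

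The FPKM of the 4 libraries summed to between 601019 and 609227, and between 1122 and 1304 of 9730 loci were listed at 0. On log2(FPKM + 1), the Pearson correlation across genes was 0.999 between the WT libraries, 0.998 between the mutant libraries and 0.915 to 0.916 between strains. The difference between the 2 libraries of a strain had an SD of 0.069 in WT and 0.091 in Δ*rco-3* on the log2 scale, over 3738 genes above 20 FPKM. The study calls the libraries independent duplicates without saying how they were separated, so the p-values measure only the spread between libraries. That spread was estimated from all 24 libraries, and it is small in the 4 compared.

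A gene was called differentially expressed (DEG) with an adjusted p below 0.001 in limma with Benjamini-Hochberg adjustment, a difference of 1 or more in either direction on log2(FPKM + 1), called the log2 fold change, and a mean above 20 FPKM in at least 1 strain. Of 7981 genes tested of 9730 loci, 979 were called (12.3%), of which 738 rose in Δ*rco-3* (9.25%) and 241 fell (3.02%). The strains also did not overlap in 92.4% of all genes tested, and 5976 genes had an adjusted p below 0.001, so most of the selection lay in the fold change and FPKM thresholds. Among the DEGs, 60 were higher and 31 lower by 3 or more on the log2 scale.

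**Figure D1:**
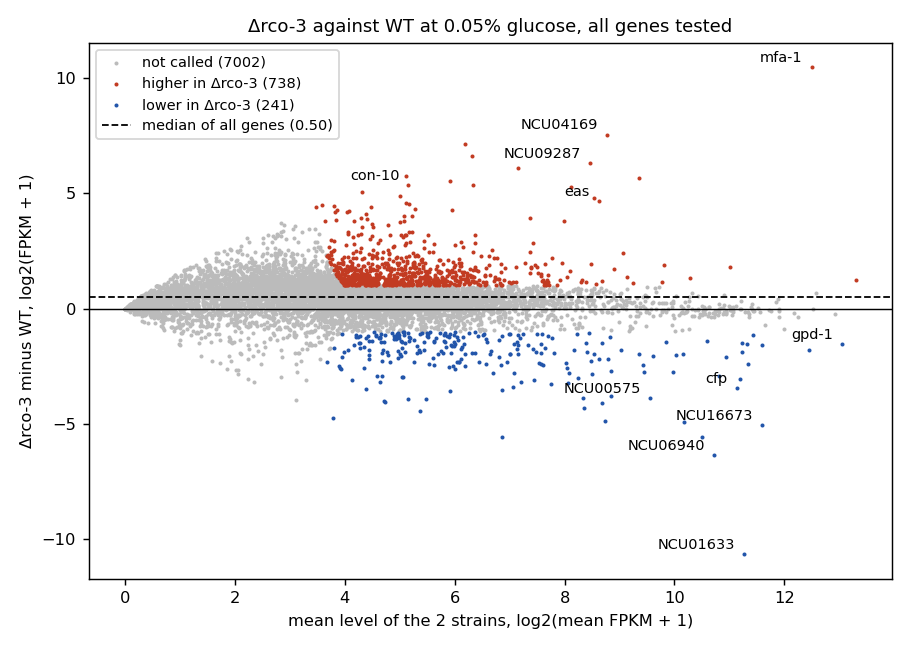
Difference between Δ*rco-3* and WT at 0.05% glucose, log2(FPKM + 1), against the mean level of the strains for the 7981 genes tested. Red points are the 738 genes called higher, blue points the 241 called lower, and the dashed line is the median of all genes at 0.50, above the line of no difference.

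Most genes lay above 0. The median difference of all genes was 0.50 on the log2 scale, a 1.41-fold level, and 78.1% of genes were higher in the mutant. FPKM values of a library sum to a nearly fixed total, and the 241 genes that fell held 21.2% of the summed FPKM in WT and 4.76% in Δ*rco-3*. Conversely, the 738 genes that rose went from 4.35% to 15.01%. Both sets were picked by their difference in these libraries, so their shares had to move this way. The 500 most abundant genes over all 24 libraries held 72.4% in WT and 66.1% in Δ*rco-3*. What set the median difference was not tested. The 738 genes that rose include *mfa-1*, which averaged 7.0 FPKM in WT and 11568 FPKM in Δ*rco-3*. For that gene mating type and the deletion cannot be told apart. By mean FPKM over all 24 libraries, the median difference was 0.40 in genes below 5 FPKM and 0.61 in those of 5 to 20 FPKM. It was 0.50 in genes of 20 to 100 FPKM, 0.39 in those of 100 to 1000 FPKM, and -0.11 in the 114 genes above 1000 FPKM.

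The split between rises and falls depended on the scale. With median-ratio scaling, which sets the median difference near 0, 256 genes rose (3.23%) and 555 fell (7.0%), together 10.2% of the genes tested. With quantile normalization 360 rose (4.51%) and 386 fell (4.84%), together 9.35%. 256 genes rose and 240 fell in all 3 scalings, and no DEG was called in the opposite direction with median-ratio scaling. Below, counts are given on the deposited scale with the median-ratio count beside them. The shares of all genes to set beside them are 9.25% higher and 3.02% lower, or 3.23% and 7.0% with median-ratio scaling.

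**Figure D2:**
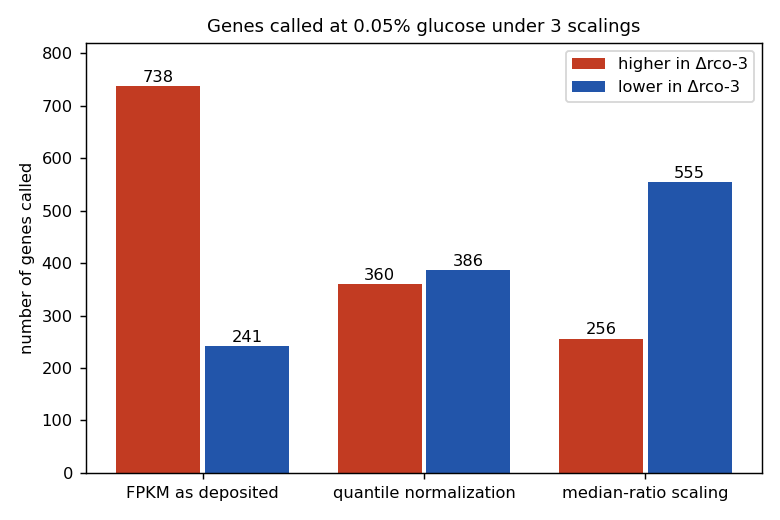
Number of genes called higher (red) and lower (blue) in Δ*rco-3* at 0.05% glucose on the deposited FPKM, after quantile normalization and after median-ratio scaling. The split moves from 738 and 241 to 360 and 386 and to 256 and 555.

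The genes of glycolysis, which turns glucose into pyruvate, fell together. Of 10 members tested, 8 were lower in Δ*rco-3* and none higher, and with median-ratio scaling all 10 were lower. The median of the list was -1.85 on the log2 scale, 2.34 below the median of all genes. Their summed FPKM was 27583 and 27221 in WT and 8366 and 8327 in the mutant.

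The largest change of the list was in a gene of the first step, whose annotation overlaps that of NCU14040. NCU00575, annotated as glucokinase, which phosphorylates glucose on entry, stood at 1395 and 1415 FPKM in WT and at 95.4 and 92.0 FPKM in Δ*rco-3*, a log2 fold change of -3.89 (SE 0.031, adjusted p = 3.9e-25 by limma). The hexokinase gene *emp-1*, of the same step, had the smallest fall of the list. Its log2 difference of -0.49 did not pass the fold change threshold. *gpd-1*, the glyceraldehyde-3-phosphate dehydrogenase gene and the most abundant gene that fell, went from 12955 and 12528 FPKM to 4327 and 4312 FPKM (log2 fold change -1.56, SE 0.033, adjusted p = 5.5e-19). For NCU00575 and *gpd-1* the strains were far apart compared with the gap between libraries of a strain.

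Other genes of the pathway moved the same way. *emp-3* fell from 474 and 478 FPKM to 66.8 and 66.3 FPKM, and *emp-6* from 1161 and 1163 FPKM to 216 and 207 FPKM. *pgk*, the phosphoglycerate kinase gene, had 1697 and 1667 FPKM in WT and 418 and 421 FPKM in the mutant, and *emp-7* had 4639 and 4666 FPKM against 1549 and 1550 FPKM. The aldolase gene *fba* and *ace-8* had log2 fold changes of -1.88 and -1.81. *gpi-1*, the glucose-6-phosphate isomerase gene, stood at 395 and 411 FPKM in WT and at 229 and 237 FPKM in the mutant, a log2 difference of -0.79 that was not called. Of the genes that set the regulatory sugar phosphate of glycolysis, the 6-phosphofructo-2-kinase gene NCU01728 fell from 28.6 and 28.5 FPKM to 7.56 and 8.57 FPKM (log2 fold change -1.71), whereas for NCU01178, the other such gene, the log2 difference was -0.18.

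Some genes of fermentation and a gene for a bypass in the respiratory chain were among the DEGs that fell. *cfp*, which encodes pyruvate decarboxylase, fell from 4118 and 4137 FPKM to 358 and 391 FPKM (log2 fold change -3.46, SE 0.038, adjusted p = 2.9e-23 by limma). *adh-1*, the alcohol dehydrogenase gene, fell from 4413 and 4328 FPKM to 780 and 856 FPKM (log2 fold change -2.42), and the aldehyde dehydrogenase gene NCU00378 rose from 26.3 and 26.4 FPKM to 108 and 105 FPKM. So of 5 ethanol metabolism genes 2 fell and 1 rose, also with median-ratio scaling.

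*aod-1*, which encodes the alternative oxidase that bypasses part of the respiratory chain, fell from 471 and 494 FPKM to 49.3 and 50.8 FPKM (log2 fold change -3.24, adjusted p = 3.5e-21 by limma). It was the only one of 54 respiratory chain and ATP synthase genes to be called, and with median-ratio scaling 3 fell. Without replicate 1 of Δ*rco-3*, 2 genes of the list were called lower.

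Sugar transporter genes moved in both directions. Of 10 tested, 3 rose and 1 fell (2 and 1 with median-ratio scaling). The list holds only loci that the annotation used or the study ties to sugar transport, so neither a total level nor an order of transporters is given. The main text of the study names the transporter gene *glt-1* without a locus, and that gene was not analysed here under its name. *glt-1* may be among the loci given below without a gene name. NCU09287, a sugar transporter, had the largest rise, from 7.59 and 7.87 FPKM to 702 and 688 FPKM (log2 fold change 6.32, SE 0.064, adjusted p = 8.1e-24 by limma). The cellodextrin transporter gene *cdt-2* rose from 0.63 and 0.79 FPKM to 29.96 and 32.1 FPKM, while for *cdt-1*, the other cellodextrin transporter gene, the levels were 53.0 and 52.0 FPKM in WT and 40.4 and 40.7 FPKM in the mutant.

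*hgt-1*, which encodes a high-affinity glucose transporter, fell from 635 and 629 FPKM to 265 and 276 FPKM (log2 fold change -1.22, SE 0.056, adjusted p = 8.6e-14). NCU05897, a sugar transporter with levels close to those of *hgt-1* in WT, had 531 and 529 FPKM in WT, 632 and 657 FPKM in the mutant, and was not called. NCU00821, annotated as a sugar transporter, rose from 77.2 and 79.6 FPKM to 171 and 175 FPKM, but with median-ratio scaling its log2 difference of 0.53 did not pass.

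Secreted enzymes that release sugar from starch and sucrose changed one against the other. *inv*, the invertase gene, fell from 3154 and 3174 FPKM to 412 and 416 FPKM (log2 fold change -2.93, SE 0.034, adjusted p = 4.5e-23 by limma), and its annotation overlaps that of NCU04264. *gla-1*, a glucoamylase gene, fell from 246 and 239 FPKM to 20.7 and 22.7 FPKM. The other glucoamylase gene, *gla-2*, rose from 5.10 and 5.22 FPKM to 119 and 115 FPKM (log2 fold change 4.26), so the order of the pair was reversed between the strains. The family 31 glycoside hydrolase gene *gh31-3* rose from 16.1 and 16.6 FPKM to 56.1 and 61.3 FPKM. In the list of 13 genes, 3 rose and 2 fell, and with median-ratio scaling 2 rose and 3 fell. The shares of all genes were 9.25% and 3.02%, and 3.23% and 7.0% with median-ratio scaling.

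Enzymes for plant cell wall polymers were mostly low. None of 21 cellulose-degrading enzyme genes was called by limma, on either scale. Of them 14 had an unadjusted p below 0.05, against 6901 of all 7981 genes tested. *gh61-2*, the most abundant, had 13.96 and 15.2 FPKM in WT and 4.52 and 3.86 FPKM in the mutant. Among 15 other plant cell wall enzymes, 3 rose and 1 fell (1 and 1 with median-ratio scaling). *gh10-2*, a family 10 xylanase gene, rose from 0.15 and 0.20 FPKM to 37.6 and 37.9 FPKM, and the cutinase gene *cut-1* fell from 58.9 and 61.3 FPKM to 27.7 and 29.3 FPKM. In pentose catabolism 1 of 5 genes was called, NCU00643, annotated as L-arabinitol 4-dehydrogenase, which rose from 4.93 and 5.35 FPKM to 24.7 and 23.3 FPKM, and with median-ratio scaling 1 rose and 1 fell. None of the 7 genes of the quinate cluster was called by limma on either scale. All 7 had an unadjusted p below 0.05, as did most of all genes tested.

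**Figure D3:**
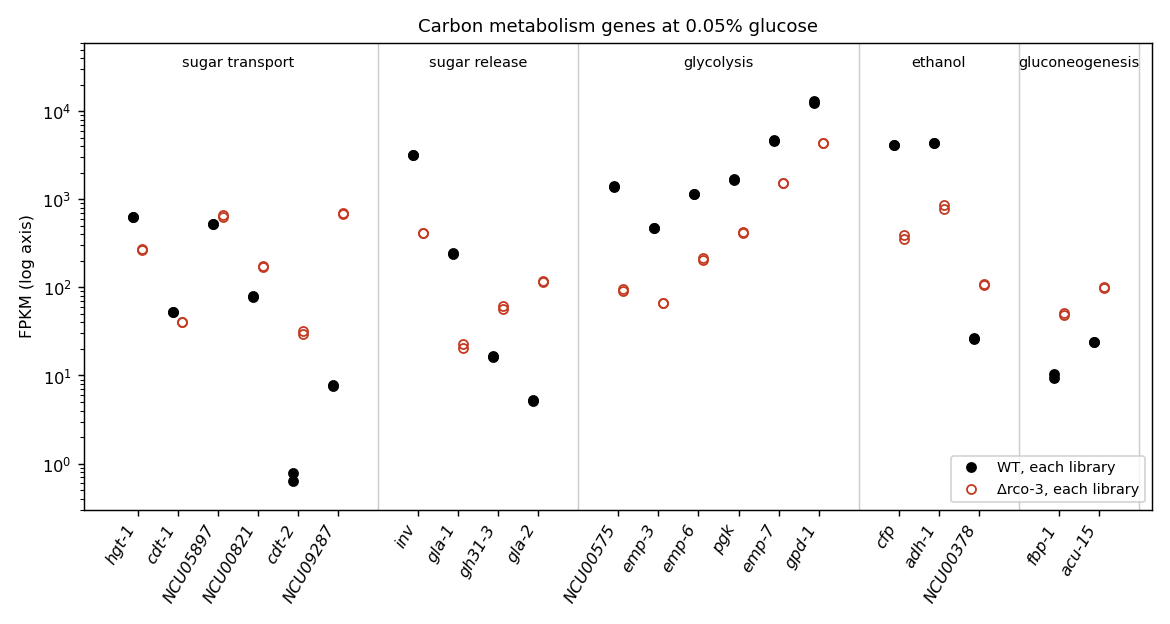
FPKM on a log axis of 21 genes of carbon metabolism at 0.05% glucose, with each WT library as a filled black point and each Δ*rco-3* library as an open red circle. The glycolytic genes, *cfp*, *adh-1*, *inv* and *gla-1* lie lower in the mutant, while NCU09287, *cdt-2*, *gla-2*, NCU00378, *fbp-1* and *acu-15* lie higher.

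Of the genes that run carbon flow in the opposite direction, 2 of 7 rose. *fbp-1*, the fructose-1,6-bisphosphatase gene, which reverses a step of glycolysis, rose from 9.28 and 10.5 FPKM to 51.3 and 48.3 FPKM (log2 fold change 2.22, SE 0.049, adjusted p = 1.1e-18 by limma). *acu-15*, which encodes a transcription factor for growth on acetate, rose from 23.9 and 24.2 FPKM to 99.9 and 99.5 FPKM. The isocitrate lyase gene *acu-3* had 50.9 FPKM on average in WT and 55.2 FPKM in the mutant and was not called, and with median-ratio scaling *acu-6*, the phosphoenolpyruvate carboxykinase gene, was lower. Among 22 genes of the tricarboxylic acid cycle, *tca-2* and *tca-16* rose and none fell, whereas with median-ratio scaling none rose and 1 fell. The transketolase gene NCU01328 went from 261 and 252 FPKM to 448 and 461 FPKM, a log2 difference of 0.82 that was not called, and 1 of 6 genes of the pentose phosphate pathway passed, *ppm-1*, which was not called without replicate 2 of either strain. With median-ratio scaling no gene of that pathway was called.

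*tre-1*, a trehalase gene, rose from 11.5 and 11.9 FPKM to 50.1 and 48.8 FPKM, and *gsy-1*, the glycogen synthase gene, from 115 and 116 FPKM to 276 and 270 FPKM. NCU00743, annotated as glycogen debranching enzyme, also rose, and *ccg-9*, a clock-controlled trehalose synthase gene, fell from 31.0 and 33.3 FPKM to 12.9 and 13.7 FPKM. That made 3 rises and 1 fall among 7 genes, or 1 and 1 with median-ratio scaling. Of 22 peroxisomal genes *fox-2*, which encodes a fatty acid oxidation enzyme, *pex11* and *pex26* rose by 1.42, 1.19 and 1.17 on the log2 scale, and none of them was called with median-ratio scaling. The count is near the 9.25% of all genes that rose.

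Genes of conidiation, the formation of asexual spores, were higher in Δ*rco-3*. *con-10* rose from 0.74 and 0.67 FPKM to 69.1 and 68.0 FPKM (log2 fold change 5.35, SE 0.051, adjusted p = 3.9e-24 by limma), and *con-8* from 1.70 and 1.85 FPKM to 68.3 and 61.9 FPKM. *eas*, which encodes the hydrophobin that coats conidia, rose from 30.5 and 27.9 FPKM to 744 and 773 FPKM. All of these rises were called on every scale.

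Over the 6 marker genes of conidiation (*con-6*, *con-8*, *con-10*, *con-13*, *eas* and *fl*), the mutant libraries lay above the WT libraries in each. Of these 6 genes 3 were called higher. Of all genes tested 92.4% did not overlap between the strains, and 78.1% were higher in the mutant. The summed level of the 6 markers was 33.9 and 31.5 FPKM in WT and 892 and 912 FPKM in Δ*rco-3*. *con-13* was at 0 in WT and at 0.36 and 0.53 FPKM in the mutant, and *fl*, the regulator of conidiation, was at 0.46 and 0.65 FPKM against 6.93 and 6.66 FPKM, both below the FPKM minimum. In these bulk samples, more cells of a type and more RNA per cell cannot be told apart, and the part of this marker level in the other results was not tested. Of 3 markers of sexual development, none was called. *asd-3* had 0.14 and 0.26 FPKM in WT and 1.21 and 1.11 FPKM in the mutant, *poi-2* had 0.59 and 0.22 against 0.68 and 0.78 FPKM, and *asd-1* had 7.36 and 7.21 against 0.99 and 1.75 FPKM. The first pair lay higher in both mutant libraries and *asd-1* lower.

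The wider list of conidiation and clock-controlled genes went both ways, with 8 of 31 higher and 4 lower (4 and 7 with median-ratio scaling). The falls include *gpd-1*, which is also a clock-controlled gene and is counted in glycolysis above. *bli-3*, a blue-light-inducible gene, rose from 5.5 and 5.57 FPKM to 65.7 and 62.6 FPKM. The abundant genes *ccg-16* and *ccg-1* rose from 6048 and 6120 FPKM to 14655 and 13683 FPKM, and from 721 and 703 FPKM to 1846 and 1721 FPKM, though neither was called with median-ratio scaling. *cmt*, the copper metallothionein gene, fell from 8668 and 8753 FPKM to 2579 and 2363 FPKM (log2 fold change -1.82). The core clock gene *frq* had a log2 difference of 0.25 and was not called.

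Oxidative stress enzymes rose where they were called. Of 24 genes 6 rose and none fell, against 9.25% and 3.02% of all genes. With median-ratio scaling 5 rose, against 3.23% of all genes. The catalase genes *cat-2* and *cat-3* rose from 4.78 and 4.88 FPKM to 25.9 and 27.0 FPKM, and from 37.0 and 34.2 FPKM to 123 and 131 FPKM, and *cat-1* had a log2 fold change of 1.68. *mig-6* rose from 73.2 and 73.4 FPKM to 261 and 258 FPKM. The superoxide dismutase genes *sod-1* and *sod-2* had log2 differences of 0.44 and 0.51, close to the median of all genes.

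In the cell wall list of 45 genes, 5 rose and 2 fell (2 and 6 with median-ratio scaling), shares near the 9.25% and 3.02% of all genes. *acw-12*, an anchored cell wall protein gene, had the largest rise of the list, from 25.7 and 23.8 FPKM to 726 and 701 FPKM (log2 fold change 4.79, SE 0.038, adjusted p = 3.0e-25 by limma). *ncw-3*, which encodes a non-anchored cell wall protein, fell from 591 and 593 FPKM to 155 and 144 FPKM. *gh76-6* and *gh76-5*, of glycoside hydrolase family 76, rose by 2.25 and 1.55, and *chit-1* fell with a log2 fold change of -1.37.

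Genes of amino acid synthesis included rises and falls, with a list median of 0.27 against 0.50 for all genes. *leu-2* and *leu-1*, which act in leucine synthesis, rose from 18.9 and 19.0 FPKM to 140 and 149 FPKM, and from 82.5 and 77.6 FPKM to 280 and 283 FPKM. *cpc-1*, the transcription factor of cross-pathway control of amino acid synthesis, averaged 386 FPKM in WT and 824 FPKM in the mutant (log2 fold change 1.09). Of 64 amino acid synthesis genes 9 rose and 1 fell, against 9.25% and 3.02% of all genes. With median-ratio scaling 2 rose and 10 fell, against 3.23% and 7.0%, so the direction of the list depends on the scale. The single fall, *his-6*, was lost without replicate 2 of WT or replicate 1 of Δ*rco-3*.

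The permeases and nitrogen assimilation genes split. *pmg*, the general amino acid permease gene, rose from 223 and 218 FPKM to 710 and 744 FPKM, and *mtr*, a permease gene for neutral amino acids, fell from 438 and 461 FPKM to 128 and 128 FPKM (log2 fold change -1.81, adjusted p = 4.9e-20 by limma). Both calls held with median-ratio scaling. The glutamine synthetase gene *gln-1* rose from 110 and 109 FPKM to 306 and 300 FPKM, and NCU01065, annotated as the ammonium transporter MEP2, fell from 25.4 and 24.2 FPKM to 6.58 and 6.33 FPKM. Of 13 nitrogen assimilation genes 1 rose and 1 fell, against 9.25% and 3.02% of all genes. With median-ratio scaling none rose and 4 fell, against 3.23% and 7.0%.

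Of 28 regulators of carbon sensing tested, 3 rose and 1 fell (1 and 3 with median-ratio scaling), shares near the 9.25% and 3.02% of all genes. *gpr-3*, a G protein-coupled receptor gene, rose from 9.60 and 8.79 FPKM to 44.6 and 44.1 FPKM, and *gna-2*, a G protein alpha subunit gene, from 12.5 and 12.3 FPKM to 31.3 and 28.4 FPKM. *pkac-2*, which encodes a catalytic subunit of protein kinase A, fell from 201 and 205 FPKM to 53.8 and 48.8 FPKM (log2 fold change -1.96), whereas for *pkac-1*, the other catalytic subunit gene, the log2 difference was 0.39.

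*col-26* itself had 39.2 and 39.6 FPKM in WT and 43.6 and 42.7 FPKM in Δ*rco-3*, a log2 difference of 0.13 (SE 0.066, adjusted p = 0.072 by limma), and its direction turned to -0.47 with median-ratio scaling and to -0.29 with quantile normalization. At 0.5% and 2% glucose *col-26* was called higher in the mutant, by 1.34 and 1.35 on the log2 scale. Its WT mean was 39.4 FPKM at 0.05%, 17.3 at 0.5% and 17.4 at 2% glucose. In Δ*rco-3* the means were 43.2, 45.5 and 45.8 FPKM. Without carbon source the log2 difference was 0.41 and was not called. The carbon catabolite repressor gene *cre-1* averaged 105 FPKM in WT and 70.7 FPKM in the mutant, and *vib-1* averaged 53.9 and 27.7 FPKM. Neither was called on the deposited scale and both were called lower with median-ratio scaling. *prk-10*, the alpha subunit gene of the AMP-activated kinase, had 24.7 and 25.5 FPKM against 50.7 and 47.0 FPKM (log2 difference 0.93), and NCU01471, the gamma subunit gene, had 29.4 and 29.4 FPKM against 44.9 and 42.1 FPKM (log2 difference 0.55, or -0.05 with median-ratio scaling). Neither subunit gene was called. *xlr-1*, the xylanase regulator gene, averaged 3.66 FPKM in WT and 18.2 FPKM in the mutant, below the FPKM minimum.

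Among 75 serine/threonine kinase genes 5 rose and 4 fell, and with median-ratio scaling none rose and 6 fell. Of all genes tested 9.25% rose and 3.02% fell, or 3.23% and 7.0% with median-ratio scaling. *stk-39* fell from 113 and 111 FPKM to 21.6 and 21.4 FPKM (log2 fold change -2.33), and *stk-48* from 162 and 159 FPKM to 60.4 and 61.2 FPKM. Of 36 transcription factors that the study had screened, 11 rose and 2 fell, against 3 and 4 with median-ratio scaling. *tah-7* rose from 6.40 and 6.02 FPKM to 33.1 and 31.6 FPKM, and NCU03699 from 14.7 and 14.8 FPKM to 67.2 and 67.0 FPKM. NCU01924 fell from 159 and 157 FPKM to 43.7 and 42.3 FPKM, and *rpn-4*, known in yeast as the activator of proteasome genes, from 137 and 143 FPKM to 50.2 and 49.8 FPKM.

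**Figure D4:**
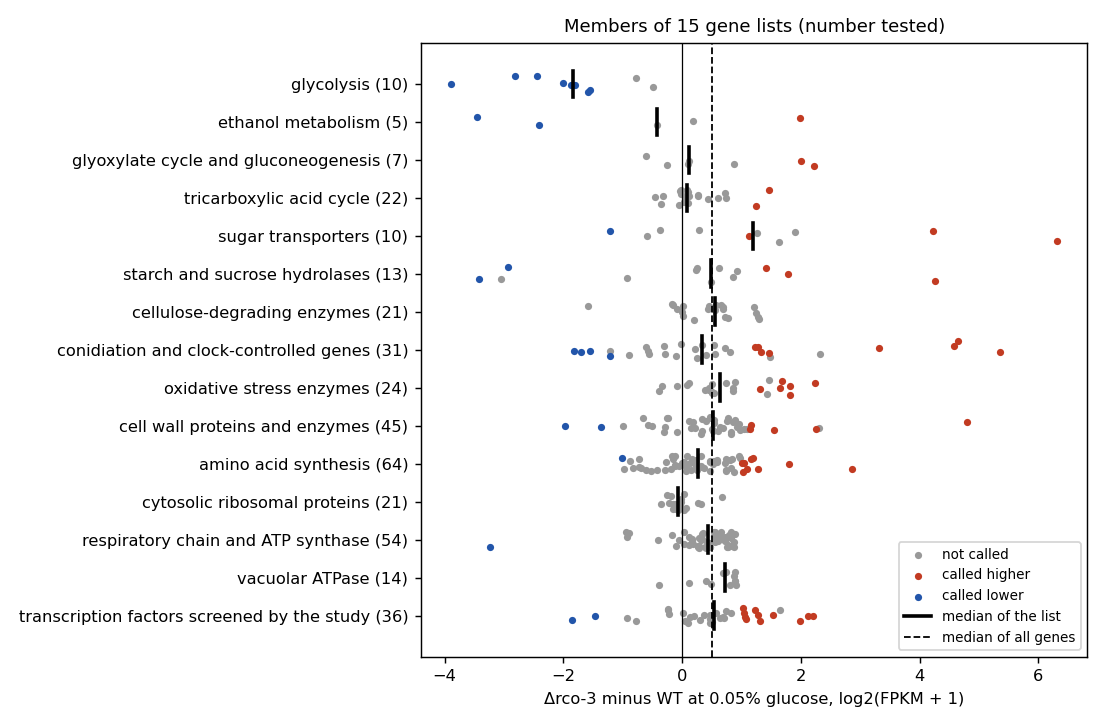
Difference between Δ*rco-3* and WT at 0.05% glucose, log2(FPKM + 1), of each tested member of 15 gene lists, red where called higher, blue where called lower and grey where not called. The black bar is the median of a list and the dashed line the median of all genes at 0.50. The glycolysis list lies entirely to its left, with a median of -1.85.

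Several other lists held few calls. For the counts below, 6901 of all 7981 genes tested had an unadjusted p below 0.05 by limma. None of the 21 cytosolic ribosomal protein genes listed was called by limma on either scale, with 11 at an unadjusted p below 0.05. Their median of -0.07 lay 0.56 below that of all genes. Their summed FPKM was 41497 and 41220 in WT and 40622 and 39741 in the mutant. The list and its sum are partial, since annotation text was at hand for 1027 of 9730 loci. None of 14 vacuolar ATPase genes was called on either scale (median 0.73, all 14 at an unadjusted p below 0.05). Of 30 proteasome genes, only *rpn-4* of the list was called. No gene was called among 26 genes of mitochondrial protein import, 15 of heat shock and 6 of carotenoid synthesis, with 22, 12 and 5 at an unadjusted p below 0.05 by limma, and with median-ratio scaling 1, 2 and 1 of them fell. *hsp70-2*, the most abundant of the heat shock list, had 1235 and 1217 FPKM in WT and 741 and 763 FPKM in the mutant.

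In the remaining lists the calls on the deposited scale were rises of 1 or 2 genes. They were 2 of 9 ribosome biogenesis genes (NCU00419 and NCU01008), 2 of 9 histone genes (*hH4v* and *hH3v*), 2 of 8 sexual development genes (*sub-1* and *Asm-1*), 1 of 6 heterokaryon incompatibility genes (*un-24*), 1 of 13 genes of sulphur and phosphate uptake (*pho-2*) and 1 of 5 mating type genes (*mfa-1*). With median-ratio scaling NCU00419, *Asm-1* and *mfa-1* kept their call, while 3 genes of sulphur and phosphate uptake and 1 of heterokaryon incompatibility were called lower and none higher. The call of *un-24*, with a log2 fold change of 1.01, and that of *sub-1*, at 20.6 FPKM on average, lay next to the thresholds and were lost without replicate 2 of Δ*rco-3*.

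Many of the largest changes were in loci without a gene name in the annotation used. NCU01633 (chrII:2887726-2890393) had the largest fall, from 4976 and 4936 FPKM to 2.31 and 1.75 FPKM (log2 fold change -10.68, SE 0.10, adjusted p = 3.8e-24 by limma). NCU06940 fell from 3296 and 3362 FPKM to 38.5 and 39.6 FPKM, and NCU07318 from 2811 and 2868 FPKM to 57.5 and 57.6 FPKM. NCU16673 had the highest WT level of the unnamed loci that fell, 6073 and 6003 FPKM, and stood at 182 and 173 FPKM in Δ*rco-3*. NCU05627, NCU03684, NCU09020, NCU09676, NCU08226, NCU08228, NCU05563 and NCU01873 had log2 fold changes between -5.60 and -4.01.

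On the other side NCU04169 rose from 3.51 and 3.73 FPKM to 816 and 916 FPKM (log2 fold change 7.55, SE 0.079, adjusted p = 1.2e-23 by limma). NCU01298 rose from 0.66 and 0.56 FPKM to 162 and 150 FPKM, and NCU10040 from 3.35 and 2.85 FPKM to 285 and 273 FPKM. NCU05755 reached 1322 and 1229 FPKM from 24.01 and 24.8 FPKM. NCU08429, NCU01231, NCU02238 and NCU09698 had log2 fold changes between 5.26 and 5.77. NCU07287 and NCU05134 were among the most abundant genes that rose, from 901 and 913 FPKM to 3303 and 3098 FPKM and from 374 and 380 FPKM to 1442 and 1391 FPKM.

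A few loci were listed at 0 in 1 strain. NCU07316 was listed at 26.5 and 24.8 FPKM in WT and at 0 in Δ*rco-3*. NCU02098 was listed at 0 in WT and at 134 and 152 FPKM in the mutant, and its annotation overlaps NCU02097. NCU02876 was listed at 0 in WT and at 23.7 and 20.02 FPKM in the mutant. No fold is given for these 3 loci.

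Calls were spread over all 7 chromosomes. Rises made up between 8.13% (chromosome II) and 10.4% (chromosome III) of the genes tested, and falls between 2.40% (chromosome I) and 3.76% (chromosome IV). Among tested genes in chromosomal order, 15 runs of at least 3 neighbours were called in the same direction, 13 of them higher, with 48 genes in all. The calls are on the deposited scale, where 9.25% of all genes rose and 3.02% fell. How many runs such shares give without any clustering was not tested. One of the longest held 4 genes at chrV:5055536-5080269, NCU04167, NCU04168, NCU04169 and NCU04170, with log2 fold changes between 3.83 and 7.55. The 3 neighbours NCU08491, NCU08490 and NCU08489 on chromosome II rose by 3.80 to 4.46. Among the falls, *inv*, NCU04266 and NCU04268 formed a run on chromosome V with log2 fold changes between -2.93 and -1.89.

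Next to the deleted gene the nearest loci on both sides were higher. NCU02580, on one side, had 101 and 97.8 FPKM in WT and 390 and 398 FPKM in Δ*rco-3* (log2 fold change 1.98, SE 0.029, adjusted p = 1.8e-21 by limma), and *gla-2*, described above, lies on the other. NCU02579, beyond NCU02580, had 8.46 and 6.97 FPKM against 60.04 and 56.4 FPKM. The other 7 of the 10 nearest loci (NCU02576 to NCU02578 and NCU02584 to NCU02587) were not called, with log2 differences between 0.18 and 0.79, and NCU02576, NCU02577, NCU02585 and NCU02586 turned negative with median-ratio scaling. *gla-2* was called higher in Δ*rco-3* than in WT in every medium, by 1.13 without carbon source, 4.25 at 0.5% and 4.16 at 2% glucose on the log2 scale. In WT without carbon source NCU02579 averaged 494 FPKM, NCU02580 2134 FPKM and *gla-2* 91.5 FPKM. In Δ*col-26* at 0.05% glucose they averaged 36.9, 392 and 13.5 FPKM, and *gla-2* was higher in Δ*rco-3* than in Δ*col-26* by 3.03 (adjusted p = 6.8e-19 by limma). Whether removal of *rco-3* acted on its neighbours was not tested.

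The WT response to carbon, taken from libraries outside this comparison, was set beside the calls. Of the 738 genes higher in Δ*rco-3* at 0.05% glucose, 48.8% were higher by at least 1 on the log2 scale in WT without carbon source than in WT at 2% glucose, against 27.6% of all genes tested and 25.9% of the 3738 genes above 20 FPKM in either strain. Of the 241 genes that fell, 24.5% were higher in this way and 33.2% were lower by at least 1, against 16.8% of all genes and 22.6% of those above 20 FPKM. These shares are a description of the lists.

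The effect of the deletion was then compared between media, which asks whether the difference seen at 0.05% glucose was the same with more glucose or with none. Glycolysis shows the pattern. Its summed FPKM in WT averaged 5139 without carbon source, 27402 at 0.05%, 18053 at 0.5% and 14858 at 2% glucose. In Δ*rco-3* the sums averaged 5198, 8346, 7750 and 8858. So the WT sum was highest at 0.05% glucose, while the mutant sum was highest at 2%.

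NCU00575 averaged 62.1, 1405, 127 and 109 FPKM in WT in the same order of media, and 90.1, 93.7, 86.3 and 75.7 FPKM in Δ*rco-3*. NCU01633 averaged 86.8, 4956, 427 and 317 FPKM in WT and never more than 2.03 FPKM in the mutant. The mutant level of NCU00575 at 0.05% glucose differed little from its own level in the other media, and the strain difference was widest where the WT level was highest.

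The difference of effects was tested by an interaction term in limma for each of the other media, with the same adjusted p, fold change and FPKM thresholds. Against 0.5% glucose, the effect at 0.05% was more positive in 362 genes (4.54%) and more negative in 264 (3.31%), together 626 genes (7.84%). Against 2% glucose the counts were 455 (5.7%) and 361 (4.52%), together 816 (10.2%). Against no carbon source they were 875 (11%) and 305 (3.82%), together 1180 (14.8%). The median of all genes also differed between media, at 0.22 without carbon source, 0.50 at 0.05%, 0.24 at 0.5% and 0.21 at 2% glucose. With median-ratio scaling the splits were 217 and 453, 276 and 550, and 504 and 529.

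By calls in each medium, 335 of the 979 DEGs at 0.05% glucose (34.2%) were called in the same direction at 0.5% glucose, where 517 genes (6.48%) were DEGs, and 13 in the opposite direction. The 335 genes were 64.8% of the DEGs at 0.5%. At 2% glucose 313 were called in the same direction, 32.0% of the DEGs at 0.05% and 49.0% of the 639 DEGs at 2% (8.01% of genes tested), and 20 in the opposite one. Without carbon source 89 were called in the same direction, 9.09% of the DEGs at 0.05% glucose and 27.4% of the 325 DEGs there (4.07% of genes tested), and 28 in the opposite one. The media share no libraries.

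*inv* and *hgt-1* were called in opposite directions. *inv* averaged 943 FPKM without carbon source, 3164 at 0.05%, 24.2 at 0.5% and 10.1 at 2% glucose in WT, and between 388 and 440 FPKM in all 4 media in Δ*rco-3*. Its log2 fold change was -2.93 at 0.05% and 4.05 at 0.5% glucose, a difference of -6.98 (SE 0.048, adjusted p = 1.2e-25 by limma). *hgt-1* averaged 2768, 632, 18.8 and 8.7 FPKM in WT and 499, 270, 257 and 183 FPKM in Δ*rco-3*, and NCU05627 was likewise lower in the mutant at 0.05% and higher at 0.5% and 2% glucose. For *inv* and *hgt-1* the WT level fell steeply between 0.05% and 0.5% glucose, while the mutant means at these concentrations lay close together.

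Other transporters differed by medium in another way. NCU05897 averaged 977, 530, 5.6 and 2.0 FPKM in WT and 318, 645, 459 and 410 FPKM in the mutant, so that 0.05% glucose was the only one of the 4 media in which it was not called. NCU09287 averaged 436, 7.7, 1.3 and 1.0 FPKM in WT and 395, 695, 557 and 453 FPKM in Δ*rco-3*, with a log2 difference of -0.14 without carbon source and 6.32 at 0.05% glucose (difference of effects 6.46). *cdt-2* averaged 244 FPKM in WT and 112 FPKM in the mutant without carbon source, against 0.71 and 31.0 FPKM at 0.05% glucose.

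A second group had a WT level that rose with glucose. *nit-10*, a nitrate transporter gene, averaged 1.3 FPKM at 0.05%, 42.2 at 0.5% and 44.1 at 2% glucose in WT and 2.7, 2.6 and 2.3 FPKM in the mutant. Its WT libraries at 0.05% glucose were at 2.22 and 0.42 FPKM, a wide gap, and the strains were not called different there. *ccg-13* averaged 32.9, 394 and 207 FPKM in WT and 26.7, 15.01 and 15.005 FPKM in Δ*rco-3*. NCU04122 was higher in the mutant at 0.05% glucose (65.9 against 17.7 FPKM) and lower at 0.5% (60.1 against 140 FPKM) and 2% (24.3 against 142 FPKM).

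**Figure D5:**
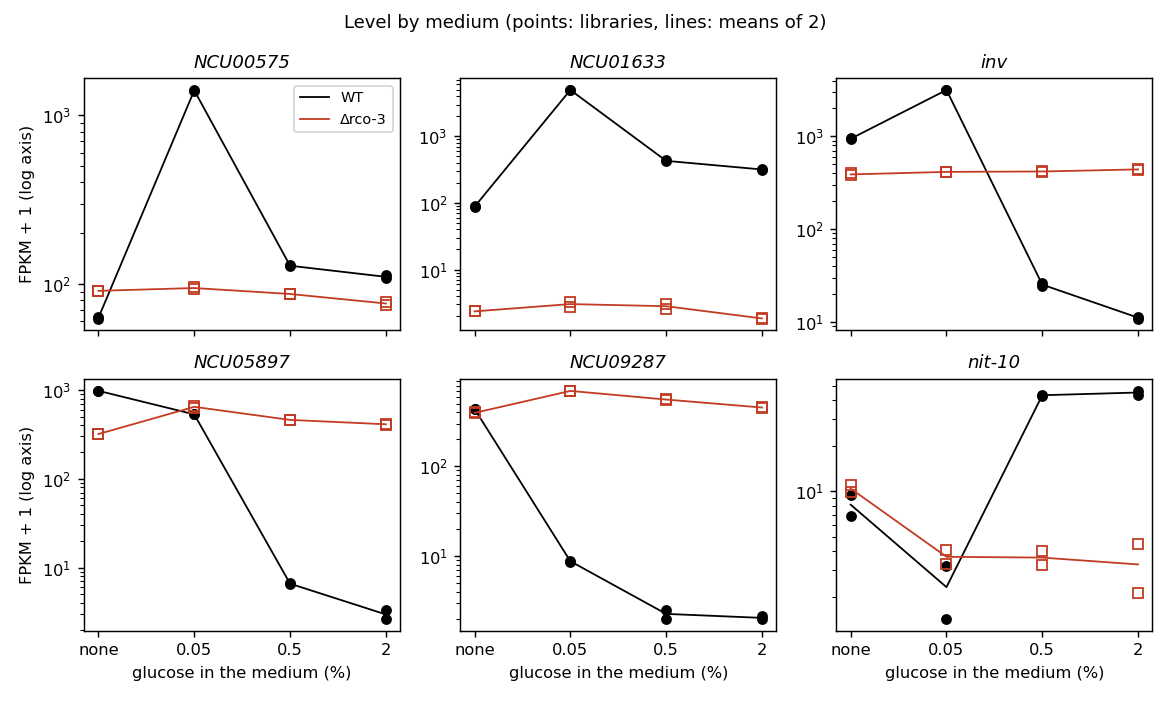
FPKM + 1 on a log axis of 6 genes in medium with no, 0.05, 0.5 and 2% glucose, with WT libraries as filled black circles, Δ*rco-3* libraries as open red squares and lines through the means of 2 libraries. WT peaks at 0.05% glucose for NCU00575, NCU01633 and *inv*, while the Δ*rco-3* level of *inv* stays between 388 and 440 FPKM on average.

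Values of the Δ*col-26* mutant at 0.05% glucose are given beside those of Δ*rco-3* with no comparison of their effects, since both are read against the same WT libraries. NCU00575 averaged 93.7 FPKM in Δ*rco-3* and 105 FPKM in Δ*col-26*, and *inv* 414 and 719 FPKM. NCU01633 averaged 2.03 and 1.00 FPKM. The mutants stood apart in other genes. *gla-2* averaged 117 FPKM in Δ*rco-3* and 13.5 FPKM in Δ*col-26*, NCU16673 178 and 2364 FPKM, and *stk-39* 21.5 and 148 FPKM. A direct test between the mutants at 0.05% glucose called 53 genes higher and 59 lower in Δ*rco-3* (1.4% of 7981), these 3 among them.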

How the data were processed

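RNA from mycelia of 24 cultures was sequenced. The authors trimmed reads with Trimmomatic 0.36, aligned them to predicted transcripts of the OR74A genome and quantified them with RSEM 1.2.8. The aligner is Bowtie2 in the study's methods and HISAT2 2.1.0 in the submitters' processing notes. The deposited FPKM values, 1 file per library, are scaled to each library's total. Read totals were not used here. In 103 genes with low values, the values were multiples of a smallest step to within 0.15 in 93.5% of cases (30% if placed anywhere), which gave relative depths of 98.7 to 102% for the 4 libraries.

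Groups came from the strain and glucose labels. Genes with a mean of at least 1 FPKM in at least 1 of 12 groups were kept (7981), and log2(FPKM + 1) of all 24 libraries was fitted by group with limma 3.58.1 (R 4.3.3, eBayes with trend, 12 residual degrees of freedom), with Benjamini-Hochberg adjustment. Fold changes on this scale understate the change of low genes. Calls used an adjusted p below 0.001, a difference of 1 or more on the log2 scale in either direction and a mean above 20 FPKM in a strain, after the study's thresholds. Alternatives were the pseudocount (0.1 and 5), the filter on low values, the scaling, the variance trend, the replicate block, the libraries in the fit, the thresholds and each of the 4 libraries left out.

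The comparison and the 35 gene lists were chosen with earlier results of these data known, and the lists were revised once the annotation was at hand. Annotation text was at hand for 1027 of 9730 loci. Lists matched in part on such text, among them those of ribosomal proteins and ribosome biogenesis, are therefore incomplete. Named genes were *rco-3*, *col-26* and loci the study names, the 12 largest changes and the 6 most abundant DEGs per direction, up to 4 DEGs per list or else its most abundant member, the 3 largest interactions per direction, up to 5 DEGs listed at 0 in a strain and 5 loci on either side of *rco-3*. Further genes in the text were chosen after their values were seen. Of these 135 genes by rule, 33 overlap another locus, and strand was not given in the sources used here, so reads of overlapping loci may not be separable. Symbols and NC12 coordinates are from RefSeq (9729 of 9730 loci matched). Figures were drawn with matplotlib 3.10.9 in Python 3.11.15.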

Additional observations from a re-analysis of the deposited data

Results flagged for a closer look

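The effect of the *rco-3* deletion differed between 0.05% glucose and another medium, by an interaction term in limma with Benjamini-Hochberg adjustment, in 626 genes against 0.5% glucose, 816 against 2% glucose and 1180 against no carbon source. The values below are the effect at 0.05% glucose minus the effect in the other medium, on the log2 scale, for the largest differences in each direction.

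Against 0.5% glucose the difference was 4.36 for *nit-10*, 4.33 for *ccg-13* and 3.31 for NCU04526, and it was -6.98 for *inv*, -6.16 for NCU05627 and -5.85 for NCU05897. Against 2% glucose it was 4.66 for *nit-10*, 4.33 for NCU04122 and 4.33 for NCU01382, and -8.24 for *inv*, -6.84 for NCU05897 and -6.62 for NCU05627. The value for *nit-10* has an SE of 0.49 against 0.5% glucose, which rests on the spread in all 12 groups. Its WT libraries at 0.05% glucose were 2.22 and 0.42 FPKM. The genes on the negative side had WT levels that were high at 0.05% glucose and low at 0.5% and 2% glucose.

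Against no carbon source the difference was 6.46 for NCU09287, 5.35 for *cdt-2* and 5.28 for NCU09698, and -6.22 for NCU07318, -5.57 for NCU06940 and -5.46 for NCU01633. The groups hold 2 libraries each, too few to look for a single library that stands apart.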

How the results depend on the processing

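The counts depended on the scaling and on the FPKM minimum. At 0.05% glucose median-ratio scaling gave 256 genes higher and 555 lower, quantile normalization 360 and 386, and no minimum FPKM gave 2026 calls, 1679 of them higher. For the effect against 0.5% glucose, median-ratio scaling gave 217 higher and 453 lower, and no minimum gave 1091 calls with 740 higher. Against 2% glucose median-ratio scaling gave 276 and 550, quantile normalization 291 higher, and no minimum 1406 calls with 919 higher. Against no carbon source median-ratio scaling gave 504 and 529, and quantile normalization 518 higher. The other alternatives kept each of these counts within 1.5 times. Leaving out 1 of the 4 libraries gave 968 to 988 calls at 0.05% glucose (724 to 748 higher, 238 to 244 lower), and 611 to 636, 808 to 820 and 1171 to 1179 for the 3 differences of effects.

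Of the 135 genes named by rule, 98 kept direction and call with median-ratio scaling, 27 lost the call and 2 gained it. The direction turned with median-ratio scaling for *col-26* (-0.47), NCU05897 (-0.33), NCU01471 (-0.045), *tom7* (-0.031), NCU02576 (-0.23), NCU02577 (-0.22), NCU02585 (-0.40) and NCU02586 (-0.26). With quantile normalization it turned for *col-26* (-0.29), *crp-7* (0.26), NCU04526 (-0.0075), NCU02576 (-0.054), NCU02577 (-0.077), NCU02585 (-0.32) and NCU02586 (-0.33). None of these genes was called at 0.05% glucose. The calls of *ppm-1*, *un-24* and *sub-1* were lost when 1 library was left out.

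The replicate number as a block gave the same counts, 738 higher and 241 lower, with 626, 816 and 1180 for the differences of effects, and changed no call of a named gene. Deviations of libraries with the same number had a correlation of -0.10 across 3738 genes, so the numbers were not taken as pairs. Over all 66 pairs of groups in the series such correlations ran from -0.52 to 0.37, with 17 above 0.1. The crossed block, added after seeing the data, gave 738 and 241 as well. The search for motifs in promoters was not run, for want of sequence. FPKM values carry no read totals, so no counting error is given for low genes, and 2 libraries per group set the spread.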

Other observations

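Some loci separated WT from both mutants in every medium. NCU02875, NCU02876 and NCU02880 lie at chrI:8823648-8844907 and were at 0.03 FPKM or less in all 8 WT libraries. In all 16 mutant libraries NCU02875 was listed at 16.4 to 26.9 FPKM, NCU02876 at 8.07 to 32.8 FPKM and NCU02880 at 3.21 to 28.1 FPKM. Besides these only *pre-2*, on chromosome VII, met the same rule of below 0.5 FPKM in all WT libraries and 2 FPKM or more in all mutant libraries, and no locus met the reverse rule. The rule was set after the values were seen. For such loci a difference between the strains used and an effect of the deletions cannot be told apart.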
